A study of Drosophila melanogaster with 13 samples.

Results

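SK (FBgn0029761) is the gene of the small-conductance calcium-activated potassium channel of Drosophila melanogaster, and it spans chrX:5340236-5405138 on the plus strand of the dm6 genome (64903 bp). Allele frequencies across this gene were followed in 12 pools of flies. Its members here are all variable sites within this span, 712 of the 1679136 sites listed in any of the 9 tables that were analysed, and 240076 of these sites lie on the X chromosome. Of the SK sites, 698 were listed in at least 1 table of the outbred population and 315 in at least 1 table of the inbred line.

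SK channels open when calcium rises inside the cell. They sense it through calmodulin bound to the channel, and the potassium current that follows returns the membrane toward rest. In neurons this current shapes the pause after an action potential.

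The pools come from an experiment in which flies were selected for ectopic wing veins (EV). Each pool held genomic DNA of 100 adult females (200 X chromosomes) from 1 population. Assimilated flies descend from lines selected for EV after heat shock of the pupae and then selected without it. Nonassimilated flies were selected for EV without any heat shock, starting from the control line. Control flies were kept at standard temperature without selection, and P0 is the ancestral population. These 4 populations were sequenced for D907, an inbred line of the Drosophila Genetic Reference Panel, and for both experiments on Mix, an outbred population made by crossing 4 inbred lines, D208, D437, D820 and D907. The second Mix experiment was begun from Mix flies that had been kept for further generations. A population stands for itself in a single pool, without replicates, so the tests below compare pools of reads. Both selected pools and the control pool of an experiment are set against the same P0 pool. Flies of the founder lines other than D907 were not analysed here.

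The annotation gives SK 14 transcripts with 3 start positions. Of these transcripts 8 begin at the gene's start, 1 begins at position 5358272 and 5 begin at position 5365225. Exons cover 10891 bp (16.8% of the span), of which 4230 bp are coding in at least 1 transcript. Of the 712 sites, 638 lay in introns, 46 in 3′ UTRs, 5 in 5′ UTRs and 23 in coding sequence, a mean of 11 sites per kb. No listed site lay within the annotated transposon copy in an SK intron. In the window of 250 bp before to 50 bp after each start, 0 sites were listed at the gene's start, 4 at position 5358272 and 0 at position 5365225. The nearest genes are CanB, which encodes a calcineurin subunit and ends 5787 bp upstream, and NAAT1, an amino acid transporter gene that ends 100 bp downstream on the minus strand.

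In the Mix pools most SK sites moved as members of a few blocks of alleles. Sites listed in all 6 Mix tables with at least 20 reads in each of the 8 pools (275 sites) were grouped by the alternative allele frequency, the share of reads with the second allele. Of these, 228 fell into 11 groups of at least 10 sites, which were numbered by size, and 47 into smaller ones. Group 1 (38 sites) was nearly fixed for the alternative allele in every pool. Group 2 held 35 sites, and at 34 of them D907 P0 flies had the alternative allele at a frequency of at least 0.95. It is called the D907 type. Groups 3 (25 sites) and 4 (23 sites) held alleles that no D907 table lists, and they are called type 2 and type 3. The sequences around the best-covered site of each type, from the plus strand of the reference genome, show where these alleles lie in the gene. The capital is the reference base of the site, and the tables do not give the alternative base. All 3 sites are in introns.
D907 type, chrX:5349369-5349393: aaatcatgatacAtaattaacttat
Type 2, chrX:5346166-5346190: tgagttgcgggtGgcggggtatggt
Type 3, chrX:5355118-5355142: gcttagcttttcCcgcataagggtt

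The D907 type had no read in either selected pool of experiment 1. It was rarer in assimilated flies of experiment 2 than in any other pool of that experiment. In experiment 1 none of 2336 reads at its 35 sites carried the alternative allele in assimilated flies, and none of 2361 in nonassimilated flies. At the site with the fewest reads, a count of 0 allows a frequency of up to 6.0% in assimilated and 5.66% in nonassimilated flies. These limits count reads only. In control flies of experiment 1, type 3 had a median of 0 over its sites but reached 0.156 at its highest site. A type that was present thus had sites without a read of it, so the true limits may be higher. The mean frequency was 0.611 ± 0.069 (SD over 35 sites) in control flies and 0.431 ± 0.085 in P0 flies. In experiment 2 the mean was 0.209 ± 0.055 in assimilated, 0.611 ± 0.060 in nonassimilated, 0.815 ± 0.067 in control and 0.617 ± 0.059 in P0 flies. At the site printed above, the alternative allele had a frequency of 0 in assimilated, 0 in nonassimilated, 0.571 in control and 0.290 in P0 flies of experiment 1. In experiment 2 its frequency there was 0.194 in assimilated, 0.536 in nonassimilated, 0.847 in control and 0.625 in P0 flies.

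Type 3 had the opposite course and was the commonest type in 3 of the 4 selected pools. In experiment 1 its mean frequency was 0.580 ± 0.059 (SD over 23 sites) in assimilated flies, 1.0 in nonassimilated flies, 0.041 ± 0.052 in control flies and 0.267 ± 0.060 in P0 flies. All 1815 reads at its sites carried the alternative allele in nonassimilated flies. In experiment 2 the mean was 0.777 ± 0.047 in assimilated, 0.361 ± 0.062 in nonassimilated, 0.120 ± 0.051 in control and 0.233 ± 0.060 in P0 flies. Nonassimilated flies of experiment 2 are the selected pool in which the D907 type remained commoner than type 3.

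Type 2 persisted in 1 selected pool. It had a mean frequency of 0.410 ± 0.082 (SD over 25 sites) in assimilated flies of experiment 1, and no read among 1659 carried it in nonassimilated flies. In control and P0 flies of that experiment the mean was 0.030 ± 0.040 and 0.197 ± 0.061. In experiment 2 it was 0 in assimilated flies (1571 reads), 0 in nonassimilated flies (1703 reads), 0.006 ± 0.021 in control flies and 0.135 ± 0.034 in P0 flies. A count of 0 at the site with the fewest reads allows a frequency of up to 6.12% in each of the selected pools without a read of it, except nonassimilated flies of experiment 2, where it allows 5.26%. As for the D907 type, these limits count reads only and may be too low.

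**Figure D1:**
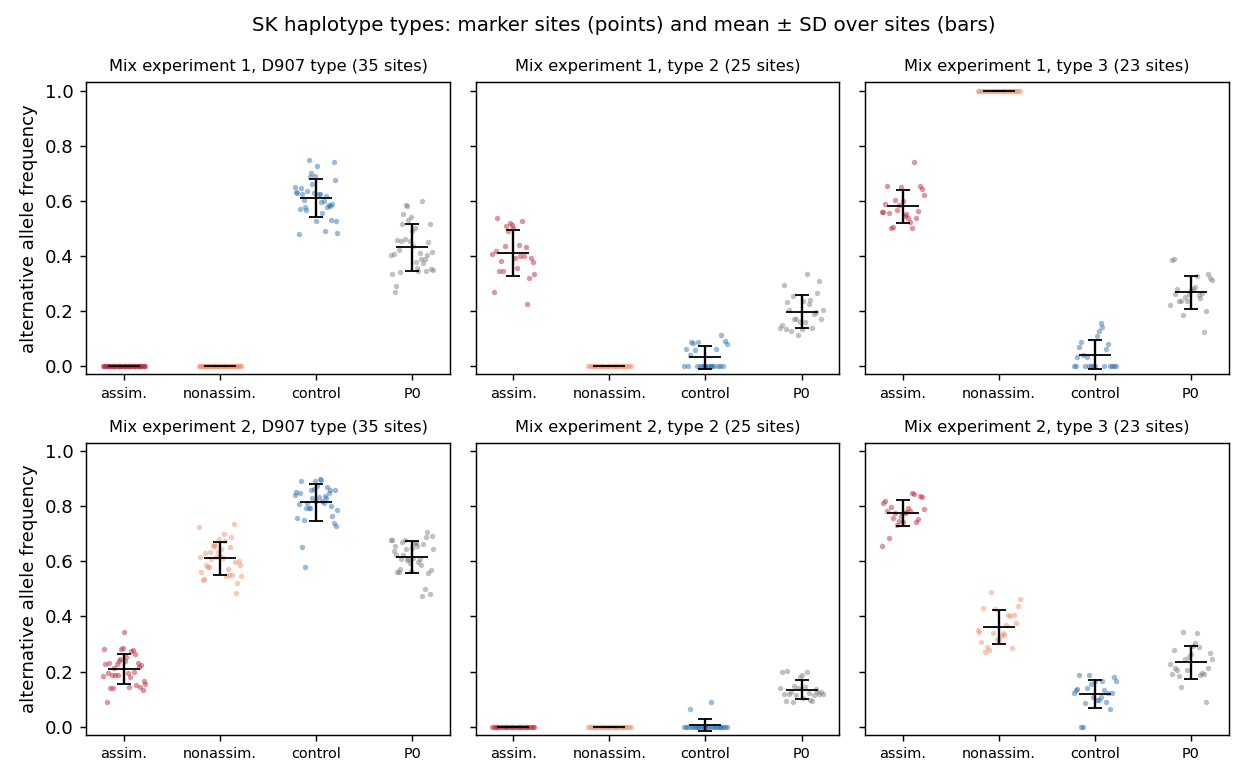
Alternative allele frequency (y axis) at the marker sites of the 3 SK types in the assimilated, nonassimilated, control and P0 pools of both Mix experiments (x axis). Each point is a site and the black bars give the mean and SD over sites. The D907 type is at 0 in both selected pools of experiment 1, where type 3 averages 0.580 in assimilated and 1.0 in nonassimilated flies.

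The sites of a type were grouped for their like frequencies, which limits their spread. For the D907 type the SD over sites was 0.055 to 0.085 in the pools that carried it, and the SD expected from the read numbers alone was 0.048 to 0.067. The ratio of the SD to that expected from the reads was highest for rare types in control flies. In experiment 1 type 3 had an SD of 0.052 there, with 0.025 from the reads, and type 2 had 0.040, with 0.022 from the reads. In experiment 2 type 2 had 0.021, with 0.009 from the reads. If 200 chromosomes had been counted, the 95% Wilson interval of the mean would be 0 to 0.019 in assimilated and 0.363 to 0.499 in P0 flies of experiment 1, and 0.159 to 0.272 in assimilated and 0.546 to 0.680 in P0 flies of experiment 2. For type 3 it would be 0.511 to 0.646 in assimilated and 0.209 to 0.330 in P0 flies of experiment 1, and 0.712 to 0.827 in assimilated and 0.182 to 0.298 in P0 flies of experiment 2. None of these pairs overlaps. Type 3 in nonassimilated flies of experiment 2 had an interval of 0.297 to 0.429, which touches that of P0 (0.182 to 0.298), and the interval of the D907 type in these flies (0.541 to 0.675) lay almost wholly within that of P0. These intervals cover the sampling of chromosomes only, and reads are not independent molecules. The types were made from these frequencies, so their values are a description with no test.

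Control flies moved away from P0 as well. The D907 type was 0.180 higher in control than in P0 flies in experiment 1 and 0.198 higher in experiment 2, with intervals of 0.541 to 0.675 in control and 0.363 to 0.499 in P0 flies, and of 0.755 to 0.863 in control and 0.546 to 0.680 in P0 flies. Type 2 was 0.167 lower in control than in P0 flies in experiment 1 and 0.128 lower in experiment 2. Type 3 was 0.227 lower and 0.113 lower. The D907 type was thus more frequent in control flies than in P0 and less frequent in assimilated flies than in P0 in both experiments.

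The 3 types together accounted for a mean frequency of 0.990 in assimilated, 1.0 in nonassimilated, 0.682 in control and 0.896 in P0 flies of experiment 1, and for 0.986 in assimilated, 0.972 in nonassimilated, 0.941 in control and 0.984 in P0 flies of experiment 2. What is left of 1, called the remainder, was largest in control flies of experiment 1 (0.318) and was at most 0.104 elsewhere. Each of the other groups was then set against the sums of every subset of D907 type, type 2, type 3 and remainder. Group 5 (22 sites) lay nearest to the sum of D907 type, type 2 and remainder, group 6 (20 sites) to D907 type and type 3, and group 7 (19 sites) to type 2, type 3 and remainder. Its means and those of the D907 type added up to 1 within 0.015 in every pool. Group 8 (15 sites) was the poorest match, at a root mean square difference of 0.049 per pool from type 3 and remainder. It covers 14.6 kb, where groups 2 to 7 and 9 to 11 each cover between 43.8 and 61.1 kb of SK.

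Of 398 SK sites with at least 20 reads in 6 or more Mix pools, 366 lay within 0.10 of such a sum. These include the sites that define the types, and outside these 3 groups it was 283 of 315. The D907 tables had a part in the choice of the types, since the D907 type was picked for alleles of D907 and types 2 and 3 from groups that D907 mostly lacks, so that the match to them is not independent. Of the 283 sites, 199 were matched to a set of types with the D907 type, and 194 of these were fixed for the alternative allele in D907 P0 flies. A further 84 were matched to a set without it, and 78 of these were not listed in D907. The 366, the 283 and the 199 sites include 41 that were matched to all 3 types and remainder together. That sum is the whole in every pool by definition. Sites nearly fixed for the alternative allele in Mix therefore match it whatever the types are. These 41 sites say nothing about the types or their match to D907. The types were chosen after the frequencies had been seen, and apart from the D907 type they are not assigned to a founder line. The sites share chromosomes, so they are not independent observations.

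Each type had sites in both parts of the gene. Since sites were grouped for like frequencies, the means of the parts are a description of where the members lie. Across its 5′ sites (23) and 3′ sites (12), divided at the middle of the span, the D907 type averaged 0.213 and 0.203 in assimilated, 0.621 and 0.591 in nonassimilated, 0.816 and 0.812 in control and 0.627 and 0.597 in P0 flies of experiment 2. Type 2 averaged 0.392 and 0.419 in assimilated flies of experiment 1 over 8 sites in the 5′ part and 17 in the 3′ part. Only 3 of the 23 sites of type 3 lay in the 3′ part, where its mean was 0.639 in assimilated and 0.321 in P0 flies of experiment 1, with 0.571 in assimilated and 0.260 in P0 flies in the 5′ part.

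**Figure D2:**
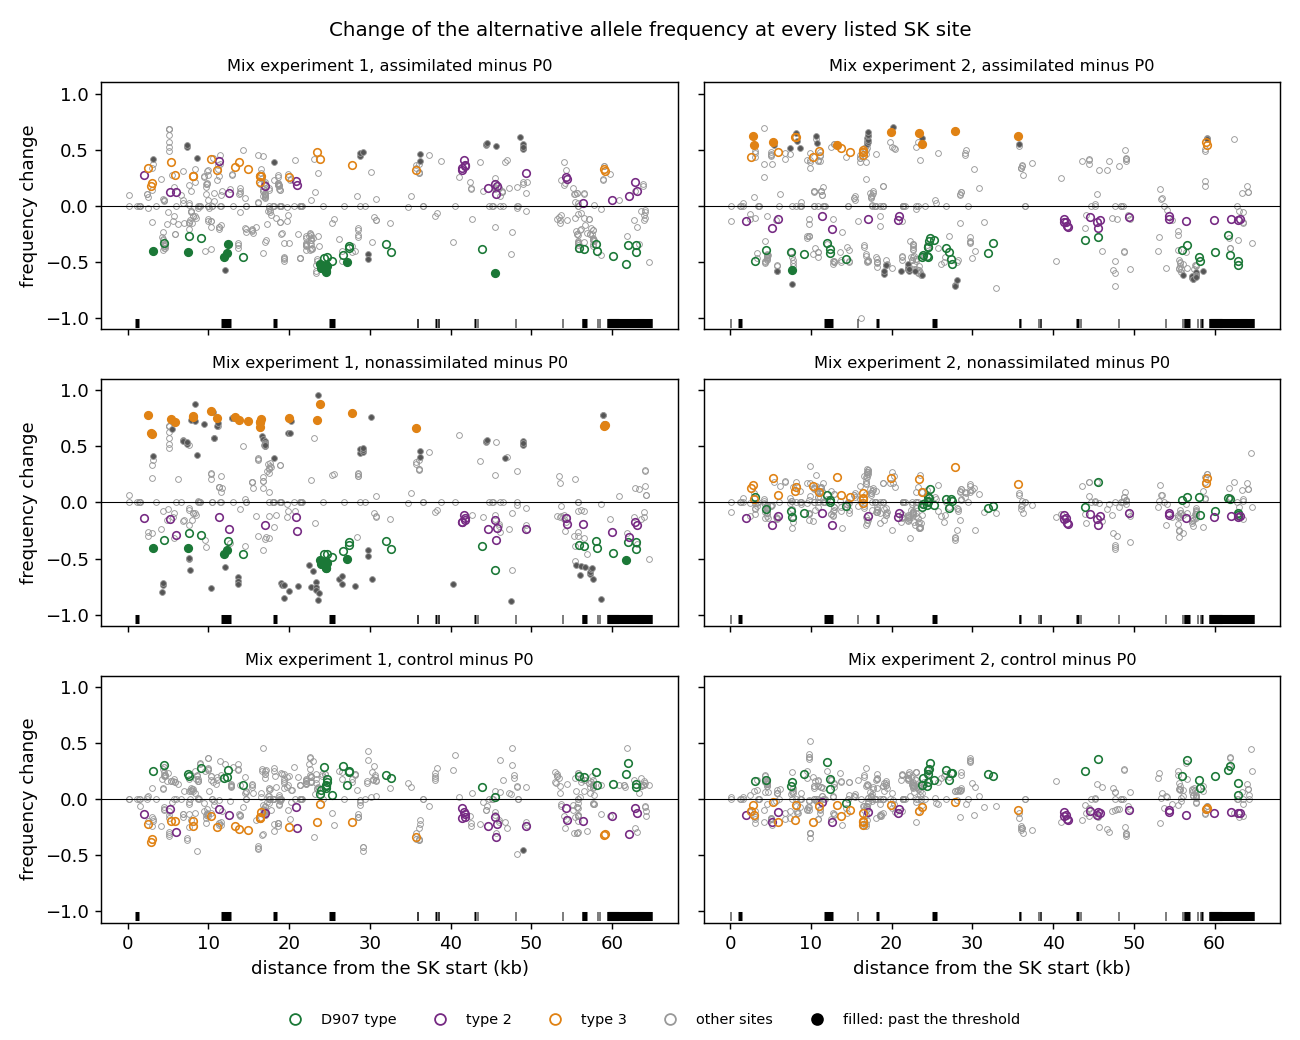
Difference in alternative allele frequency between each derived Mix pool and P0 (y axis) at every listed SK site, by distance from the gene's start in kb (x axis). Colours mark the sites of the 3 types, filled points passed Fisher's exact test after Bonferroni correction, and black blocks at the bottom are exons. In nonassimilated flies of experiment 1 the sites of type 3 lie near 0.7 along the gene, and in experiment 2 no site of nonassimilated or control flies is filled.

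Each site was also tested for itself, by Fisher's exact test (two-sided) on the reads of both alleles and Bonferroni correction over all sites of the table, and was called changed at an adjusted p below 1e-05. In experiment 1, 36 of 524 SK sites had changed in assimilated flies (6.87%, where 14.2% of all tested sites had), 20 upward and 16 downward. In nonassimilated flies 137 of 408 had changed (33.6%, where 21.4% of all tested sites had), 81 upward and 56 downward. In control flies 1 of 552 had changed (0.181%, against 0.75% of all tested sites). This intron site, at position 5389173, had an alternative allele frequency of 1.0 in assimilated, 1.0 in nonassimilated, 0 in control (85 reads) and 0.450 in P0 flies of experiment 1. Nonassimilated flies of experiment 1 were thus the Mix pool with the highest share among its listed SK sites, which was also above that of the whole X chromosome (29.0%). In assimilated flies of experiment 1 the share at SK was below that of the X chromosome (15.9%), and so it was in control flies (0.401%).

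In experiment 2 the order was reversed. In assimilated flies 65 of 493 SK sites had changed (13.2%, where 26.2% of all tested sites and 7.13% of sites on the X chromosome had), 32 upward and 33 downward. No site of 486 passed in nonassimilated flies, where 20.4% of all tested sites and 16.4% of sites on the X chromosome had changed. There 149 SK sites had an unadjusted p below 0.05, as had 83354 of 144610 sites on the X chromosome. In control flies no site of 507 passed (0.356% of all tested sites and 0.0839% of sites on the X chromosome did). Of these SK sites 213 had an unadjusted p below 0.05, as had 41247 of 170518 sites on the X chromosome. The median absolute frequency change over the listed SK sites was 0.215 in assimilated, 0.312 in nonassimilated and 0.15 in control flies of experiment 1, and 0.415 in assimilated, 0.0931 in nonassimilated and 0.114 in control flies of experiment 2. Assimilated flies of experiment 2 thus had the largest median change over listed sites, which are not the same in each pool.

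**Figure D3:**
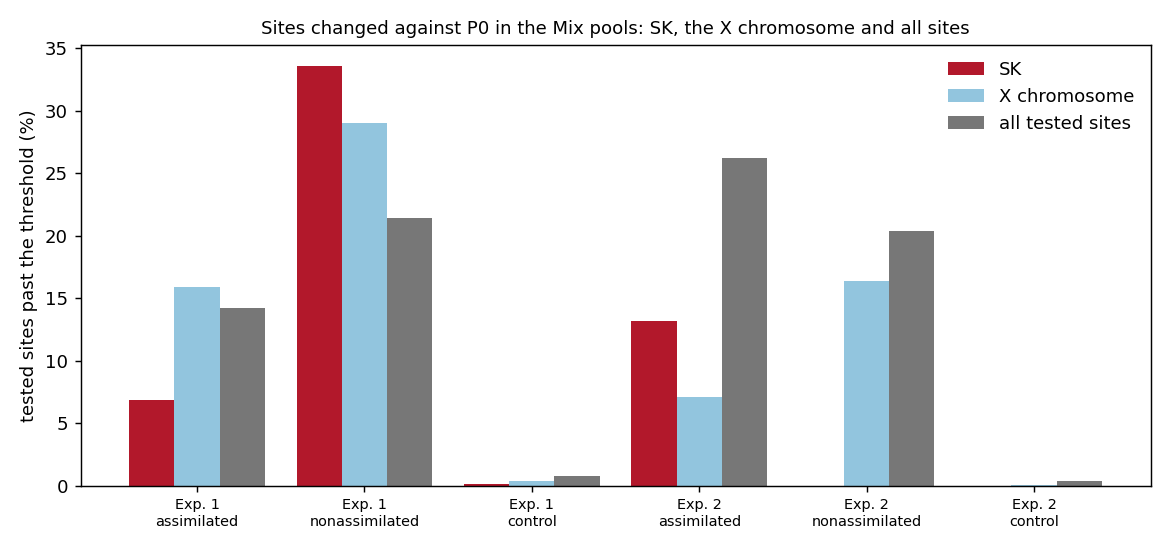
Percentage of tested sites past the threshold against P0 (y axis) in SK, on the X chromosome and over all tested sites, for each derived Mix pool (x axis). SK stands above all tested sites in nonassimilated flies of experiment 1 (33.6% against 21.4%) and below them in the other 5 pools.

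The depth of the pools limits these counts. The median depth at SK was 57 to 77 reads per pool, and an allele had to be at a P0 frequency of at least 0.433 to 0.492, depending on the Mix comparison, for its complete loss to pass. Complete loss of type 2, at 0.197 and 0.135 in P0, could therefore not be detected at a site of median depth. The D907 type, at a mean of 0.431 in P0 of experiment 1, was below the limit there as well. That limit was 0.474 for assimilated and 0.458 for nonassimilated flies. Of 38 tested sites matched to the D907 type alone, 13 passed for assimilated and 12 for nonassimilated flies, although no read carried the type. A low share of sites past the threshold is thus not a measure of little change. With reads scaled to a pool of 200 chromosomes, experiment 1 had 7 of 524 SK sites past the threshold in assimilated and 95 of 408 in nonassimilated flies. Experiment 2 had 9 of 493 in assimilated flies. The share over all sites was not computed with scaled reads.

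The sites that passed can be set beside the types whose sum lay nearest to their frequencies, and are called carried by these types. The match used the frequencies of the same pools. The direction in which matched sites moved therefore follows from the match and is a description with no test. In assimilated flies of experiment 1, all 16 sites that fell were matched to the D907 type alone (13) or with the remainder (3), and 17 of the 20 that rose to both type 2 and type 3. In nonassimilated flies of experiment 1, 33 of 35 tested sites carried by type 3 alone had risen, as had 22 of 23 carried by type 3 and remainder. All 27 sites carried by D907 type, type 2 and remainder had fallen. In assimilated flies of experiment 2, of the 33 sites that fell, 22 were carried by D907 type, type 2 and remainder and 10 by D907 type and type 2. The sites of type 2 alone passed in none of these pools (25 tested in each).

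In coding sequence of experiment 1, 5 of 14 tested sites had changed in assimilated flies and 5 of 14 in nonassimilated flies. In introns it was 31 of 474 in assimilated flies and 130 of 360 in nonassimilated flies. In experiment 2 it was 0 of 18 coding sites in assimilated flies, where 65 of 443 intron sites had changed, and 0 of 20 in nonassimilated flies, where no intron site had. The coding sites are few and linked to each other. In 3′ UTRs 2 of 29 sites had changed in nonassimilated flies of experiment 1, and in 5′ UTRs none of 5 in any comparison. The coding sites that passed are shown for 3 positions in different exons, to place them in the gene, and were singled out after their values were seen.
Position 5352233, chrX:5352221-5352245: acagggcctggtCcgtagcagcata
Position 5358361, chrX:5358349-5358373: gccgcccatgccGcccatgccggtc
Position 5396288, chrX:5396276-5396300: cacgcagttgacGaaacgggtattg

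Position 5352233 is coding in 8 of the 14 transcripts, as the third base of a codon. Its alternative allele was at 0 in assimilated (89 reads), 0 in nonassimilated (77 reads), 0.885 in control and 0.571 in P0 flies of experiment 1, where it passed in both selected pools (adjusted p = 2.26e-13 for assimilated and 2.07e-11 for nonassimilated flies, Fisher's exact test). In experiment 2 its frequency was 0.262 in assimilated, 0.633 in nonassimilated, 0.852 in control and 0.605 in P0 flies. The allele is fixed in D907 P0 flies (102 reads). The neighbouring coding positions 5352203 and 5352599, both the third base of a codon, also passed in both selected pools of experiment 1, and position 5352654, the first base of a codon, passed in assimilated flies, with an adjusted p of 0.000631 in nonassimilated flies. All 3 lie in the same exon as 5352233 and were at 0 in both selected pools.

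Position 5358361 is coding in 1 transcript only, the one that begins at 5358272, and is not listed in D907. Its alternative allele was fixed in assimilated (86 reads) and nonassimilated flies (107 reads) of experiment 1, with 0.324 in control and 0.608 in P0 flies, and passed in both selected pools (adjusted p = 3.26e-06 for assimilated and 5.42e-08 for nonassimilated flies, Fisher's exact test). In experiment 2 its frequency was 0.746 in assimilated, 0.390 in nonassimilated, 0.111 in control and 0.283 in P0 flies, and it did not pass. Position 5396288 is coding in all 14 transcripts, as the third base of a codon. Its frequency was 0.426 in assimilated, 0 in nonassimilated (64 reads), 0.662 in control and 0.642 in P0 flies of experiment 1, and it passed in nonassimilated flies (adjusted p = 4.2e-10, Fisher's exact test). Which amino acids the alternative alleles encode cannot be read from tables without their bases.

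Between assimilated and nonassimilated flies of experiment 1, 75 of 398 SK sites passed (18.8%, with 23.9% of all tested sites), 26 of them higher and 49 lower in assimilated flies. An unadjusted p below 0.05 was found at 210 SK sites and at 99901 of 153776 sites on the X chromosome. In experiment 2, 3 of 471 sites passed (0.637%, with 18.8% of all tested sites), all 3 lower in assimilated flies. An unadjusted p below 0.05 was found there at 311 SK sites and at 44687 of 133060 sites on the X chromosome. The median absolute difference between the selected pools over the listed SK sites was 0.184 in experiment 1 and 0.34 in experiment 2, so that the experiment with more sites past the threshold had the smaller median difference. These 3 sites, at positions 5359313, 5367599 and 5367652, carry alleles fixed in D907 P0 flies. At position 5367652, for example, the frequency was 0.143 in assimilated, 0.674 in nonassimilated, 0.894 in control and 0.658 in P0 flies of experiment 2 (adjusted p = 1.72e-06 between the selected pools, Fisher's exact test).

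Against the control pool, which shares the culture period, more SK sites differed than against P0, except in nonassimilated flies of experiment 2. In these flies the median absolute difference over SK sites was 0.188 against control and 0.0931 against P0. In experiment 1, 138 of 483 SK sites differed between assimilated and control flies (28.6%, with 17.7% of all tested sites), and 179 of 387 between nonassimilated and control flies (46.3%, with 25.2%). In experiment 2, 236 of 477 differed between assimilated and control flies (49.5%, with 22.4%), and 0 of 474 between nonassimilated and control flies (with 20.2%). In the latter comparison 290 SK sites had an unadjusted p below 0.05, and the share over other sites was not computed. The nonassimilated line was itself derived from control flies.

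Few single sites passed in both experiments. Of 367 SK sites tested in both, 2 had changed in the same direction in assimilated flies (4.15% of all such sites did), 0 of 306 in nonassimilated (with 7.58%) and 0 of 390 in control flies (with 0.0213%). None had changed in opposite directions. In nonassimilated and control flies no SK site passed in experiment 2, so neither kind of shared call was possible there. The 2 sites of assimilated flies lie in introns within 10 kb of the gene's start, were matched to types 2 and 3 and are printed as the only SK sites called in both experiments.
Position 5347637, chrX:5347625-5347649: atttgacatttgCcaaaattgtcaa
Position 5348834, chrX:5348822-5348846: caagctgcgttgCtggccatgtttt

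At position 5347637 the alternative allele was at 1.0 in assimilated (79 reads), 1.0 in nonassimilated (98 reads), 0.0909 in control and 0.458 in P0 flies of experiment 1, with an adjusted p of 3.12e-11 for assimilated flies by Fisher's exact test. In experiment 2 it was at 0.785 in assimilated, 0.315 in nonassimilated, 0.169 in control and 0.274 in P0 flies, with an adjusted p of 1.21e-06 for assimilated flies. At position 5348834 it was at 1.0 in assimilated, 1.0 in nonassimilated, 0.114 in control and 0.577 in P0 flies of experiment 1, and at 0.816 in assimilated, 0.398 in nonassimilated, 0.226 in control and 0.298 in P0 flies of experiment 2. In both experiments the assimilated pool was above P0 and the control pool below it at both sites.

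A Cochran-Mantel-Haenszel test, which keeps each experiment as a replicate block and adds up the change over both, called 144 of 367 SK sites in assimilated (25.4% of all sites were called), 61 of 306 in nonassimilated (23.6%) and 2 of 390 in control flies (1.18%). A large change in 1 experiment can be enough to pass. In nonassimilated flies 129 of these sites passed Fisher's exact test in experiment 1 and 0 in experiment 2. Without regard to any threshold, the frequency of 253 sites moved the same way in assimilated flies of both experiments and that of 73 sites in opposite ways (77.6% the same way, where it was 63.2% over all sites). In nonassimilated flies it was 80.8% (54.2% over all sites), and in control flies 84.4% (62.9% over all sites). Mix P0 of experiment 2 descends from the same admixed stock as that of experiment 1, and linked sites move together.

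Loss of variation differed among the selected pools. Of the SK sites listed for each pool, 172 of 524 (32.8%) had reads of only 1 allele in assimilated, 374 of 408 (91.7%) in nonassimilated and 94 of 552 (17.0%) in control flies of experiment 1, with 10.3% in P0. In experiment 2 it was 138 of 493 (28.0%) in assimilated, 135 of 486 (27.8%) in nonassimilated and 89 of 507 (17.6%) in control flies, with 10.4% in P0. The tables do not list the same sites. Of the 552 SK sites listed for control flies of experiment 1, 69 are absent from the table of assimilated and 165 from that of nonassimilated flies. A site absent from a table was not tested, and how sites were chosen for a table is not given in the sources used here. Of the sites matched to D907 type, type 2 and remainder, 61 were listed for assimilated and 27 for nonassimilated flies of experiment 1. Sites matched to type 3 alone numbered 35 in each. Between these sets, the sites whose alternative allele was lost are thus the ones missing in nonassimilated flies. Other sets differed in this. Sites matched to D907 type and type 2 numbered 28 in assimilated and 11 in nonassimilated flies. Sites matched to type 2 alone, whose alternative allele was also lost in nonassimilated flies, numbered 25 in each. Loss of the alternative allele thus did not always go with a missing site in nonassimilated flies. The share of sites changed, their direction and the median change there depend on this listing.

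The changes at SK lay within the range of its surroundings on the X chromosome. In windows of 10 kb, over sites whose rarer allele reached 0.1 in P0, the mean absolute change in the 7 windows that begin in SK was 0.229 to 0.370 in assimilated, 0.351 to 0.530 in nonassimilated and 0.149 to 0.222 in control flies of experiment 1. In the 100 windows up to 500 kb away it was 0.0817 to 0.413, 0.219 to 0.627 and 0.105 to 0.309 in these pools. In experiment 2 the SK windows had 0.312 to 0.474 in assimilated, 0.0795 to 0.142 in nonassimilated and 0.102 to 0.183 in control flies, and the 96 windows around them 0.115 to 0.557, 0.0633 to 0.276 and 0.0714 to 0.199. In nonassimilated flies of experiment 1 the share of sites within 0.02 of fixation was 85.0% to 98.0% in the SK windows and 76.7% to 100% in the other windows.

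**Figure D4:**
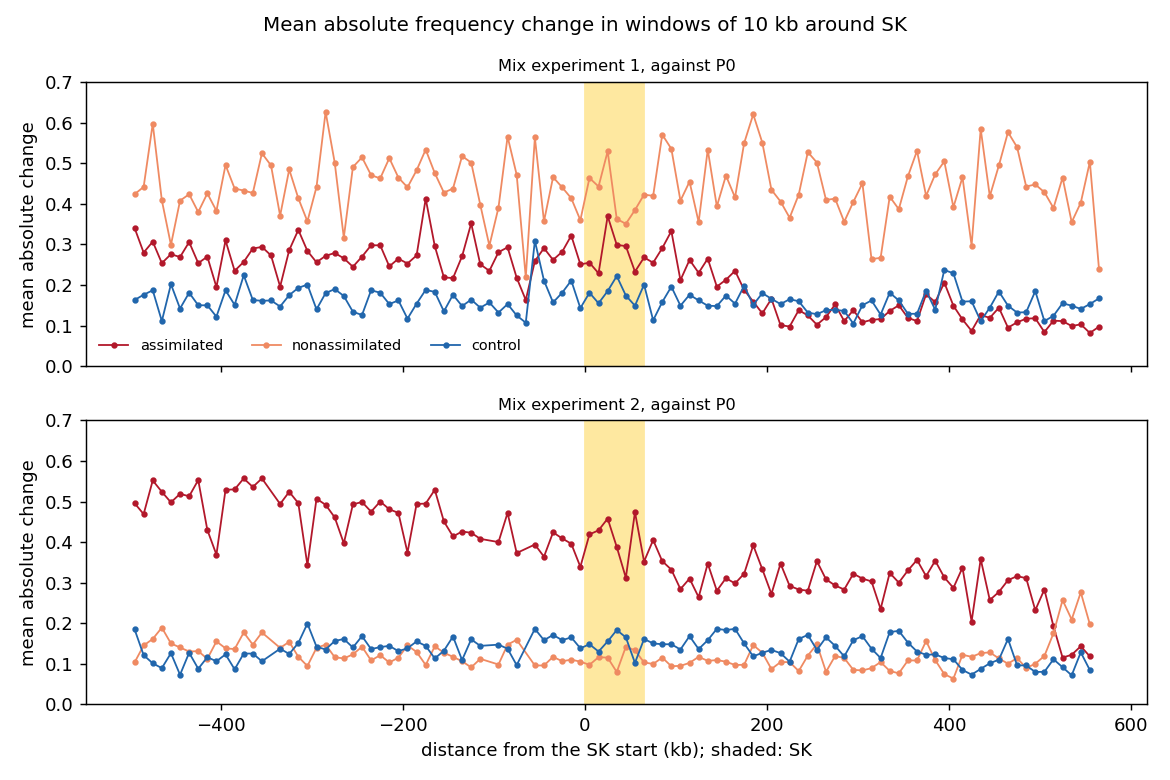
Mean absolute change in allele frequency against P0 (y axis) in windows of 10 kb, by distance from the start of SK in kb (x axis), for assimilated, nonassimilated and control flies of both Mix experiments. SK is shaded. The SK windows of assimilated flies in experiment 2 (0.312 to 0.474) continue a block of high values that reaches far upstream of the gene.

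Sites around the gene changed in the same pools. In the 100 kb on each side of SK, experiment 1 had 10.5% of sites changed in assimilated flies and 41.7% in nonassimilated flies, and experiment 2 had 8.42% in assimilated flies and 0.0526% in nonassimilated flies. In NAAT1, the nearest gene, experiment 1 had 11.8% of 85 sites changed in assimilated flies and 45.5% of 66 in nonassimilated flies, and experiment 2 had 13.5% of 74 in assimilated flies and 0% of 73 in nonassimilated flies. Changes at SK therefore cannot be told apart from those of its neighbours on the chromosome.

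Other potassium channel genes varied widely. Over a list of 11 genes, the channel genes slo, SLO2, Sh, Shab, Shal, Shaw, eag, sei, Elk and KCNQ and the calmodulin gene Cam, experiment 1 had 8.07% of sites changed in assimilated flies and 23.6% in nonassimilated flies, experiment 2 had 9.95% in assimilated flies and 17.4% in nonassimilated flies, and 0.0152% and 0.327% in the control flies of experiments 1 and 2. In experiment 1 the share of a single gene was 0% to 26.9% in assimilated flies and 0% to 47.5% in nonassimilated flies. In experiment 2 it was 0% to 49.5% in assimilated flies and 0% to 61.7% in nonassimilated flies. The shares of SK lie within these ranges. Sh, the Shaker channel gene, which is also on the X chromosome, had changed at 16.6% of 1153 sites in assimilated flies and 24.2% of 861 in nonassimilated flies of experiment 1. In experiment 2 no Sh site passed (922 tested in assimilated, 991 in nonassimilated flies).

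In D907 itself SK hardly varied. Of the 315 sites listed, 275 were fixed for the alternative allele in P0 flies (frequency of at least 0.95), 4 for the reference allele, and 36 carried both alleles. No SK site passed in assimilated (309 tested, with 4.38% of all tested sites called), nonassimilated (303 tested, with 1.84%) or control flies (307 tested, with 0.0379%), and 4, 6 and 3 sites had an unadjusted p below 0.05 by Fisher's exact test. On the X chromosome 1130 of 102572, 1188 of 103088 and 1187 of 103093 sites in these pools had such a p. The share of X sites that passed was 0.039% in assimilated, 0.0398% in nonassimilated and 0.031% in control flies. At median depth a complete loss passed only from a P0 frequency of 0.408 to 0.421, depending on the comparison, so few SK sites could have passed. Between assimilated and nonassimilated flies 0 of 298 sites passed, where 1.12% of all tested sites did, and 6 had an unadjusted p below 0.05, as had 923 of 100283 sites on the X chromosome. The median frequency of the 34 sites with both alleles that are listed in all 3 tables was 0.231 in assimilated, 0.204 in nonassimilated, 0.202 in control and 0.241 in P0 flies. Their range over the 4 pools had a median of 0.106 and reached 0.380.

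The sites with both alleles in D907 lay mostly in simple sequence. Within 12 bases on each side of the site the reference had a run of at least 7 copies of 1 base at 27 of these 36 sites (75.0%), at 42 of the 275 sites fixed for the alternative allele (15.3%) and at 98 of the 397 sites not listed in D907 (24.7%). The same held in Mix. Among sites that lay further than 0.10 from every sum of types, 22 of 32 (68.8%) had such a run, and among the sites within 0.10, 43 of 366 (11.7%). The part of such runs in these frequencies was not tested. The SK site with the smallest p in D907 assimilated flies is printed because it lies next to such a run.
Position 5340357, chrX:5340345-5340369: tcgcgcactccaCaaaaaaaaaata

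At position 5340357, an intron position 0.12 kb from the gene's start, the alternative allele was at 0.124 in assimilated (89 reads) and 0.119 in nonassimilated flies (84 reads) of D907, and no read carried it in control (86 reads) or P0 flies (90 reads). The unadjusted p of Fisher's exact test was 0.00033 in assimilated and 0.000513 in nonassimilated flies, and neither passed after correction (adjusted p = 1.0). Mix also had an alternative allele at this position, and since its base is not given it may not be the same one. Its frequency was 0.0952 in assimilated, 0.0633 in nonassimilated, 0 in control and 0 in P0 flies of experiment 1. In experiment 2 it was 0 in assimilated, 0.0519 in nonassimilated, 0.152 in control and 0.137 in P0 flies.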

How the data were processed

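Pool-seq reads of 12 pools of 100 females were aligned to dm6 with BWA and variants called with GATK by the authors, whose site filters are not given in the sources used here. The 9 deposited tables set each derived pool beside its P0 pool. The other unit, pairs of reference and alternative read counts per site, is as the authors deposited it, not normalized for depth, and their own p-values, ranks and q-values were not used. Here alternative allele frequencies were computed, and Fisher's exact test with Bonferroni correction was applied over each whole table. The test was written for this purpose in Python 3.11.15 and checked against that of SciPy 1.17.1 on simulated reads. Gene models are those of Ensembl and printed sequences those of the RefSeq genome, both in dm6 coordinates. Groups of sites were formed by average linkage at a root mean square difference of 0.10 per pool, with at least 10 sites. The D907 type is the group with at least 80% of sites alternative in D907 and the lowest mean. For types 2 and 3, the pair was taken, from groups with at least 80% of sites not listed in D907, that with the D907 type summed to at most 1.05 in every pool and best matched the other groups. Sites to name were the 10 exon sites in the most tables, the 2 sites of smallest p against P0 per pool and the best-covered site of each group, and the text gives those that bear on a result. Further sites were chosen after their values were seen. The members and lists were chosen with earlier results of these data known. Mix pools of 1 experiment are paired by their shared P0. The differences between experiments correlated between pools at 0.26 to 0.681 over 745570 sites, and between -0.01 and 0.696 over 278 SK sites. Other thresholds, corrections, depths and site sets were tried.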

Additional observations from a re-analysis of the deposited data

Results flagged for a closer look

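Type 2, the SK alleles of group 3, differed in direction between the experiments in assimilated flies. Its mean frequency in assimilated minus P0 flies was 0.213 in experiment 1 (0.410 in assimilated, 0.197 in P0) and -0.135 in experiment 2 (0 in assimilated, 0.135 in P0). The difference between the experiments was not tested.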

How the results depend on the processing

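Under the alternative settings 76 values stayed within 1.5 times the count, or 1 SD over sites, and 39 moved. Why was not tested. With Benjamini-Hochberg correction, the stricter threshold or scaled reads, the share over all sites was not computed. Counts under these settings, here and below, therefore show only how the SK counts depend on the setting. With Benjamini-Hochberg correction at 0.05 the SK sites changed against P0 were 319 of 524 in assimilated, 326 of 408 in nonassimilated and 213 of 552 in control flies of experiment 1. They were 407 of 493, 139 of 486 and 141 of 507 in these pools of experiment 2. In D907 they were 2 of 309 in assimilated and 3 of 303 in nonassimilated flies. Between assimilated and nonassimilated flies 52.3% of tested SK sites differed in experiment 1, 63.9% in experiment 2 and 0.336% in D907. At an adjusted p below 1e-08, 17 sites passed in assimilated and 0 in control flies of experiment 1 and 20 in assimilated flies of experiment 2, and 4.77% and 0% of sites differed between the selected pools of experiments 1 and 2. With reads scaled to 200 chromosomes the counts were 7 in assimilated and 0 in control flies of experiment 1 and 9 in assimilated flies of experiment 2, and 2.76% and 0% of sites differed between the selected pools of experiments 1 and 2. With 5 kb added on each side, 55 sites passed in assimilated flies of experiment 1 and 1.23% differed between the selected pools of experiment 2. With control flies instead of P0 as the base, 138 and 236 sites passed in assimilated flies of experiments 1 and 2. Over sites whose rarer allele reached 0.1 in P0, the median absolute change in D907 was 0.0636 in assimilated, 0.0601 in nonassimilated and 0.0294 in control flies, and 0 over all SK sites in each. A cut at 0.15 gave 7 groups of sites in place of 11.

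With each experiment as a replicate block, as the pairing of the pools allows, 144 sites passed in assimilated, 61 in nonassimilated and 2 in control flies, where 2, 0 and 0 had passed in both experiments. Using 1 experiment alone, 33 to 61 sites passed in assimilated, 0 to 129 in nonassimilated and 0 to 1 in control flies. With Benjamini-Hochberg correction in both experiments, 216 of 367, 101 of 306 and 63 of 390 sites changed the same way in assimilated, nonassimilated and control flies.

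The median in place of the mean, and sites with at least 40 reads, changed the frequency of the D907 type by less than the SD over its sites in each Mix pool. Each population is 1 pool, so drift and selection cannot be told apart at SK. In Mix the median depth was 57 to 74 reads. There a complete loss passed only from a P0 frequency of 0.433 to 0.492, depending on the comparison.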
